A study of Mus musculus with 20 samples.

Results

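The 8 podocyte genes described here are Nphs1, Podxl, Wt1, Synpo, Ptpro, Plce1, Magi2 and Cd2ap. They were taken by name from the table of raw counts, which lists 24411 genes, and all 8 had counts in every mouse. Podocytes are the epithelial cells that wrap the glomerular capillaries. Their interlocking foot processes are joined by the slit diaphragm, a zipper-like junction that holds back protein while water passes. Loss of these cells or of the junction leads to proteinuria and scarring of the glomerulus, and podocytes have little capacity to renew themselves.

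RNA-seq was performed on whole kidneys of 20 mice on a C57BL/6 background, 5 in each of 4 groups (male control, male mutant, female control and female mutant). All carried floxed Pkd2 (Pkd2 fl/fl) and all received doxycycline, 50 mg/kg a day from postnatal day (P) 27 to 29, and kidneys were taken at P125. Mutants had both Pax8rtTA and TetOCre, so that doxycycline deleted Pkd2, the gene of polycystin-2, whereas controls lacked 1 of the 2 transgenes. The Pax8 promoter acts in proximal and distal tubules and collecting ducts, and podocytes are not among the compartments named for it, so that whether Pkd2 was deleted in podocytes is not known here. Mice came from 3 litters (A, B and C) and carry a short name: MC1 to MC5 are male controls, MM1 to MM5 male mutants, FC1 to FC5 female controls and FM1 to FM5 female mutants.

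Libraries held 11307741 to 19324073 counts. The library of FM4 stood apart, with 14850 genes detected against 16776 to 17724 in the others and 76 genes with a single count against 708 to 859. Pkd2, the targeted gene, was read first as a check of the labels. It stood at 250.4 to 332 CPM (normalized read count, scaled to a common library size) in male controls and 109.7 to 133 in male mutants, and at 193 to 306 in female controls and 94.8 to 182 in female mutants, so that mutants lay below controls of their own sex in every mouse. Kidney weight averaged 419 ± 112 mg in male mutants and 169 ± 20.2 mg in male controls, a ratio of 2.49, and 254 ± 73.0 mg in female mutants and 123 ± 11.6 mg in female controls, a ratio of 2.06 (SD, n = 5 each).

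The genes differ widely in level. Per kilobase of exon, to allow comparison between genes, the mean over 20 mice was highest for Podxl, which encodes podocalyxin, the charged sialomucin of the podocyte surface (39.3 CPM per kb). Cd2ap, a cytosolic adaptor at the slit diaphragm, followed with 11.8 CPM per kb and Synpo, which encodes the actin-associated protein synaptopodin, with 7.56. Nphs1, which encodes nephrin, the core protein of the slit diaphragm, had 3.25 CPM per kb. The receptor-type phosphatase gene Ptpro had 2.46, the transcription factor gene Wt1 1.65, the scaffold gene Magi2 1.14 and the phospholipase C epsilon gene Plce1 0.677. Podxl is also made by endothelium and Cd2ap by many cell types, whereas nephrin is close to restricted to podocytes within the kidney. In whole-kidney RNA, fewer cells of a type and less RNA per cell cannot be told apart.

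In the GRCm38 genome with the GENCODE M21 annotation, Nphs1 lies on chromosome 7 from 30458315 to 30487223, Podxl on chromosome 6 from 31519488 to 31563981, Wt1 on chromosome 2 from 105126529 to 105173616 and Ptpro on chromosome 6 from 137252319 to 137463233. Cd2ap lies on chromosome 17 from 42792951 to 42876665, Magi2 on chromosome 5 from 19227036 to 20704792 and Plce1 on chromosome 19 from 38481109 to 38785030. An antisense gene, Nphs1os, overlaps Nphs1 but had at most 1 count in any mouse. Wt1os, on the opposite strand next to Wt1, had 0 to 23 counts against 88 to 342 for Wt1. Counting by strand was not given in the sources used here.

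Promoter windows of 5 of the 8 genes (Nphs1, Ptpro, Cd2ap, Plce1 and Magi2, the last with 2 windows) were matched by symbol in RefSeq, build GRCm38.p6. Those that touch no annotated exon are shown, the 250 bases before the RefSeq start of Ptpro, which was lower in mutants, and of a start inside an intron of Magi2, which was not called. Capitals mark CANNTG, the E-box read on both strands, found in 66.2% of all 32851 windows of this length.
Ptpro, chr6:137252049-137252298, plus strand: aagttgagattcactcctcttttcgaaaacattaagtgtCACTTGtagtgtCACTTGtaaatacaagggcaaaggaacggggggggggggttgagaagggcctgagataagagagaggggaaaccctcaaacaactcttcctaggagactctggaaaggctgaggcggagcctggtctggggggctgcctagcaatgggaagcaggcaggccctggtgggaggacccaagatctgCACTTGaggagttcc
Magi2, chr5:19907268-19907517, plus strand: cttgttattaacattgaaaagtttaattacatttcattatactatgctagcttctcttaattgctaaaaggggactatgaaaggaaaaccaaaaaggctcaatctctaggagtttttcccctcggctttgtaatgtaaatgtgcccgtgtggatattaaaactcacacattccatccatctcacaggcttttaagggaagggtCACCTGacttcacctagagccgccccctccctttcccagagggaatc
Ptpro had 3 matches, all with the letters CACTTG, and this Magi2 window had 1. The other windows held 0 matches in Nphs1, 2 in Cd2ap, 1 in Plce1 and 1 at the first Magi2 start. Cd2ap had 31 CpG sites and the first Magi2 start 29, more than in 94.8% and 93.2% of windows, whereas Nphs1 had 5, Plce1 6 and Ptpro 3. GCGTGGG, a core bound by Wt1 and Egr proteins, was found on either strand in 1 of the 6 windows (the first Magi2 start) and in 4.30% of all windows.

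To ask how podocyte genes stand in cystic kidneys, mutants were first compared with controls over all 20 mice, with sex and litter in the model (edgeR quasi-likelihood test, Benjamini-Hochberg adjustment over all genes, called at an adjusted p under 0.01). Replicates are separate mice, and ± after a log2 fold change is its standard error (SE). Nphs1, Podxl, Wt1 and Ptpro fell and Cd2ap rose, whereas Synpo, Plce1 and Magi2 did not pass the test. Thus 4 of 8 members were called lower at an adjusted p under 0.01, against 5.57% of the 15355 genes tested, and 1 was called higher, against 9.82%. Their median log2 fold change was -0.22, beside -0.01 over all genes tested. The members and the direction of some of them were known from earlier results of these data, so that these counts describe the group and are not independent support for it.

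Nphs1 had the largest fall. In male controls MC1 to MC5 it stood at 23.2, 22.2, 20.0, 20.8 and 15.2 CPM, and in male mutants MM1 to MM5 at 8.48, 15.2, 11.5, 15.7 and 9.65. In female controls FC1 to FC5 it stood at 30.5, 35.5, 30.5, 33.5 and 28.3 CPM, and in female mutants FM1 to FM5 at 19.7, 22.7, 15.6, 20.5 and 31.2. In each sex 4 of 5 mutants lay below every control of that sex, and the exceptions were MM4 and FM5. Here and for the members below, the share of all genes with mutants and controls so far apart was not counted. The log2 fold change over all mice was -0.65 ± 0.12 (SE, adjusted p = 5.1e-04), or 1.57 times lower in mutants.

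Podxl, the most abundant member, fell by 0.56 ± 0.09 on the log2 scale (adjusted p = 1.9e-04). Male controls had 222, 216, 201, 212 and 146 CPM and male mutants 114, 166, 140.0, 179 and 136. Female controls had 323, 353, 323, 311 and 275 CPM and female mutants 173, 174, 195, 219 and 238. The 2 female groups did not overlap, while in males MM2 and MM4 lay above MC5, the lowest control.

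Wt1, which encodes a zinc finger factor needed to form and maintain podocytes, fell by 0.50 ± 0.09 (adjusted p = 3.1e-04). It had 9.37, 9.03, 8.27, 11.1 and 5.85 CPM in male controls, 6.22, 6.70, 6.82, 8.45 and 4.97 in male mutants, 14.2, 18.7, 13.8, 13.6 and 15.6 in female controls and 10.7, 10.4, 9.12, 9.83 and 12.0 in female mutants. The female groups were again apart, a separation that was not counted over all genes, and only MM5 lay below all male controls. Ptpro, whose phosphatase sits on the foot process membrane, fell by 0.37 ± 0.08 (adjusted p = 0.0016). It ranged from 20.3 to 25.3 CPM in female controls against 16.004 to 20.3 in female mutants, the lowest control (FC5) and the highest mutant (FM5) being all but equal, and from 10.2 to 15.4 in male controls against 8.19 to 15.1 in male mutants, which overlapped. The call of Ptpro ended in a fit with sex but no litter term (adjusted p = 0.013), where the other 4 members remained called. Leaving out any 1 of the 20 mice ended the call of none of the 5.

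Cd2ap went the other way, with a log2 fold change of 0.36 ± 0.07 (adjusted p = 6.0e-04). Male controls had 158, 161, 149.5, 177 and 138 CPM and male mutants 232, 168, 211, 221 and 189. Female controls had 179, 176, 197, 171 and 124 CPM and female mutants 200.2, 221, 273, 214 and 176. In each sex 4 of 5 mutants exceeded every control of that sex, the exceptions being MM2 and FM5.

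Synpo (chromosome 18, 60593973 to 60660142) kept nearly the same mean in mutants and controls, with 55.1 ± 10.997 CPM in male mutants and 52.9 ± 8.71 in male controls, and 90.3 ± 11.6 in female mutants and 89.8 ± 9.01 in female controls (SD, n = 5 each). Its log2 fold change was 0.02 ± 0.06 (SE, adjusted p = 0.86). Plce1 ranged from 7.83 to 20.4 CPM in female mutants and had -0.08 ± 0.15 (adjusted p = 0.73). Magi2 had -0.04 ± 0.10 (adjusted p = 0.83), with 9.49 to 15.5 CPM over the 20 mice.

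**Figure D1:**
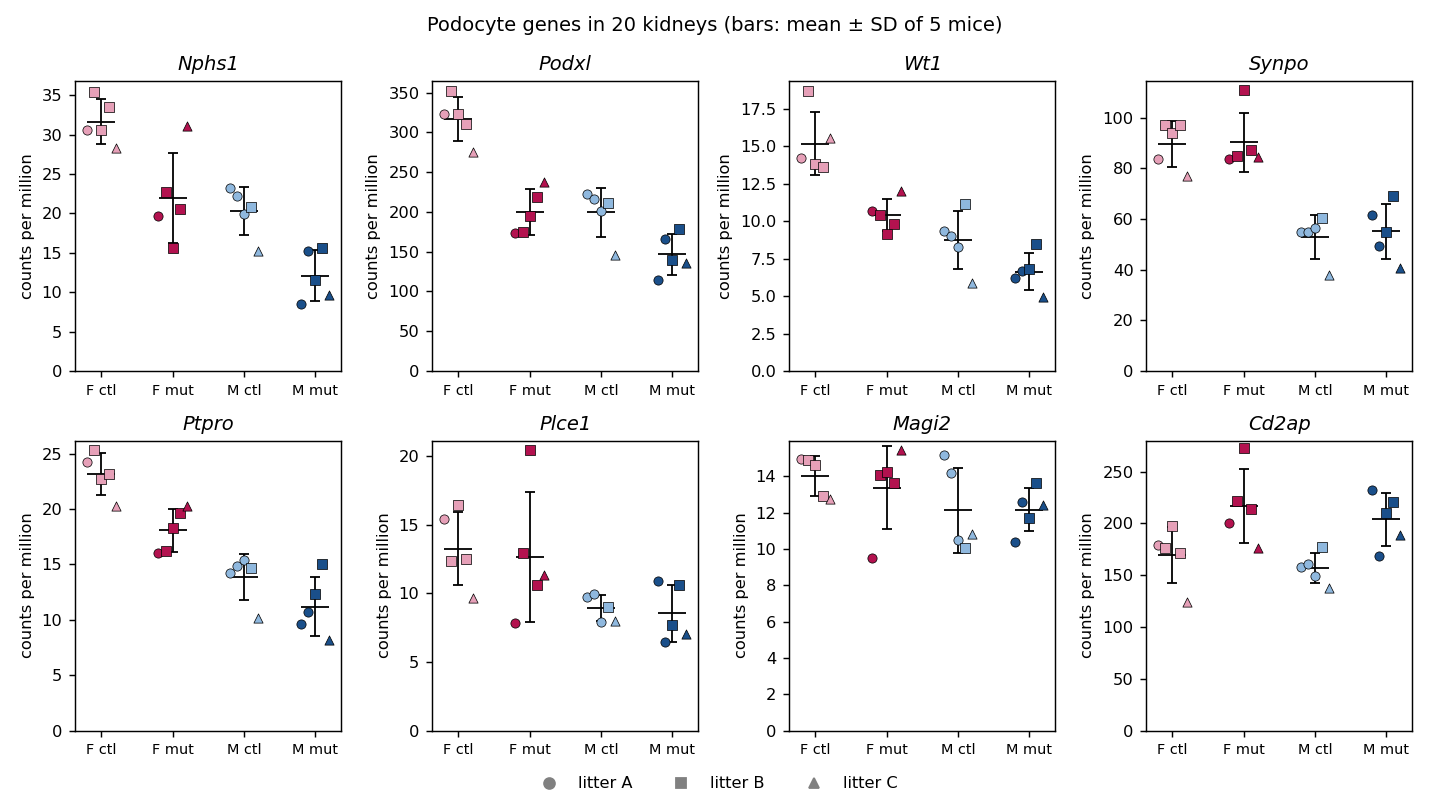
Level of each podocyte gene (CPM, axis from 0) in the 4 groups, 1 point per mouse with its litter as the symbol, and bars for the mean ± SD of 5 mice. Nphs1, Podxl, Wt1 and Ptpro step down from female controls to male mutants, Synpo separates by sex alone, and Cd2ap is higher in mutants.

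Within each sex fewer members passed. In males Nphs1 was called, with -0.77 ± 0.16 (adjusted p = 0.0064), 1 of 8 members against 3.13% of 14706 genes called lower. Podxl, Wt1 and Ptpro had -0.45 ± 0.12, -0.45 ± 0.12 and -0.38 ± 0.11 (adjusted p = 0.019, 0.026 and 0.036), and Cd2ap 0.35 ± 0.09 (adjusted p = 0.015). The male call of Nphs1 ended on leaving out any male control, MM3 or MM5, 7 of 10 omissions, with an adjusted p of 0.0020 to 0.028 and a log2 fold change of -0.91 to -0.60 over all 10. Calls fell across all genes in these 7, to between 195 (without MC4) and 813 (without MM5), against 1228 with every male. Omitting MC5 and omitting MM5, the only males of litter C, are not separate tests.

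In females 0 of 8 members were called by edgeR, against 0.612% of 15194 genes. At an unadjusted p under 0.05 there were 5, against 20.6% of all genes, and DESeq2 called 2, Podxl and Wt1, against 6.29%. The log2 fold changes were -0.65 ± 0.12 for Podxl (adjusted p = 0.014), -0.53 ± 0.13 for Wt1 (0.044), -0.54 ± 0.15 for Nphs1 (0.064), -0.34 ± 0.11 for Ptpro (0.11) and 0.38 ± 0.11 for Cd2ap (0.073). Without FM4, whose library stood apart, Podxl was called (-0.68 ± 0.13, adjusted p = 0.0073). In that fit 906 of 15140 genes were called in either direction, against 93 of 15194 with FM4. Without FM5, the female mutant highest in Nphs1, Nphs1 had -0.71 ± 0.13 (adjusted p = 0.026). It had the same values without FC5, the only other female of litter C. This match was fixed by the design, since with litter in the model either omission removes litter C from the comparison. The match cannot tell whether the shift belongs to FM5 or to FC5.

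The difference between the sexes was tested by the sex-by-genotype term. By edgeR 0 of 8 members were called, as were 0% of 15355 genes, and 0 members had an unadjusted p under 0.05, against 650 of all genes, and DESeq2 called 0 members. The estimates nearest to a difference were -0.20 ± 0.24 for Nphs1 and 0.23 ± 0.18 for Podxl, male minus female change on the log2 scale (adjusted p = 1 for both). Leaving out 1 mouse moved them from -0.35 (without MM2) to -0.026 (without FC5) for Nphs1 and from 0.078 (without MC5) to 0.35 (without FC5) for Podxl. A p that misses the threshold does not show that the sexes changed alike.

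Litter was checked by taking the difference between mutants and controls inside each litter and sex. For Podxl, Wt1 and Ptpro the difference was below 0 in all 3 litters of both sexes, and for Cd2ap above 0 in all. For Nphs1 the log2 difference lay between -0.93 and -0.62 in males, and between -0.77 and 0.14 in females, where litter C, with FM5 and FC5 alone, gave the positive value. Ptpro in females of litter C differed by only -0.00034.

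The members were also read as their log2 ratio to Nphs1 within a mouse, a description added after the data were seen. Nphs1 is the member with the largest fall in males and over all mice, so that a member that fell less there must gain against it. In females Podxl fell more than Nphs1 (-0.65 and -0.54 on the log2 scale). The ratios restate the fold changes mouse by mouse. The mean log2 ratio of Synpo went from 1.38 in male controls to 2.20 in male mutants, and from 1.502 to 2.07 in females. Cd2ap gained 1.15 in males and 0.92 in females, Magi2 0.79 and 0.48, and Plce1 0.68 and 0.44. The members that fell with Nphs1 gained least, with 0.33 and -0.11 for Podxl, 0.39 and 0.02 for Wt1 and 0.45 and 0.20 for Ptpro. In males the mutants lay above all controls for Podxl, Synpo, Magi2 and Cd2ap, and all 7 ratios overlapped in females. The share of all genes whose ratio to Nphs1 separates the groups was not counted.

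**Figure D2:**
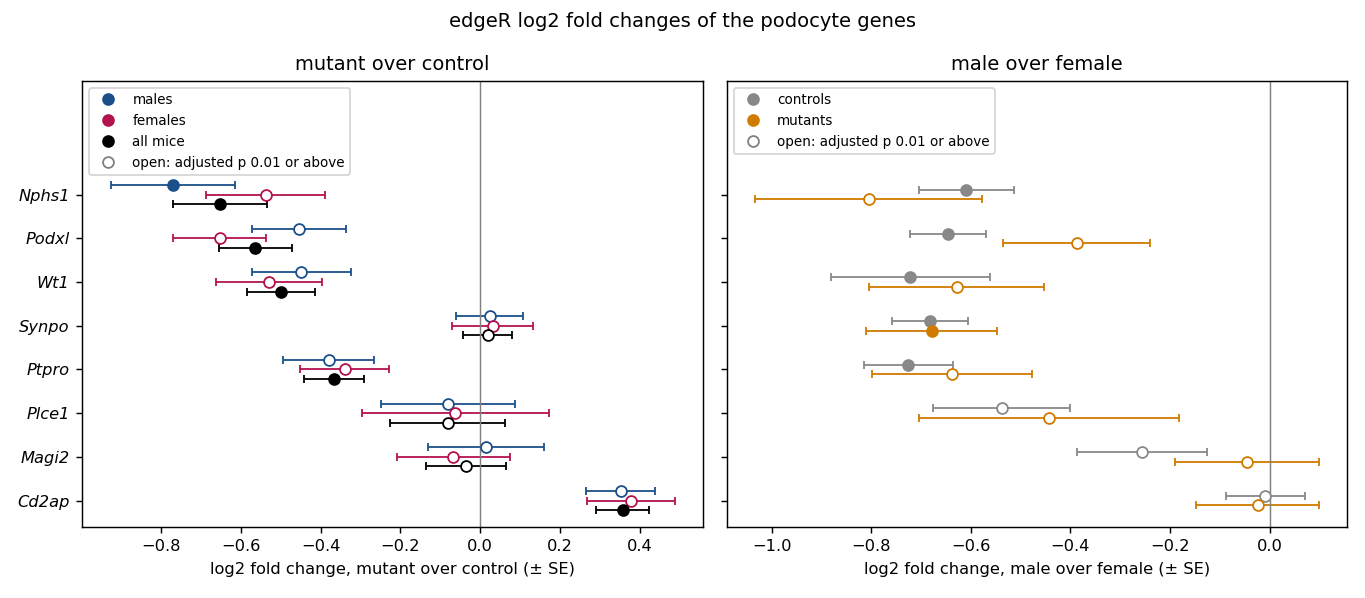
edgeR log2 fold change ± SE of each podocyte gene, mutant over control (left, in males, females and all mice) and male over female (right, in controls and mutants), with filled points where the adjusted p was under 0.01. Nphs1, Podxl, Wt1 and Ptpro lie left of 0 in every comparison shown, and Cd2ap lies right of 0 for genotype and near 0 for sex.

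In control mice Nphs1, Podxl, Wt1, Synpo and Ptpro were lower in males than in females, 5 of 8 members against 8.6% of 14760 genes called lower, and their median was -0.63 beside -0.01 over all genes tested. Ptpro had -0.73 ± 0.09 (adjusted p = 8.4e-05), Wt1 -0.72 ± 0.16 (0.0050), Synpo -0.68 ± 0.08 (3.7e-05), Podxl -0.65 ± 0.08 (5.8e-05) and Nphs1 -0.61 ± 0.10 (5.1e-04). The male and female controls did not overlap in any of these 5 genes, but the share of all genes without overlap was not counted. Differences by sex were common in controls, with 39.5% of the 14760 genes at an unadjusted p under 0.05. For Synpo, male controls had 55.0, 54.8, 56.4, 60.5 and 37.9 CPM and female controls 83.9, 97.1, 93.8, 97.1 and 76.9.

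Plce1 had -0.54 ± 0.14 (adjusted p = 0.011), short of the threshold, Magi2 -0.26 ± 0.13 (0.17) and Cd2ap -0.01 ± 0.08 (0.94). The call of Wt1 ended without FC1 (adjusted p = 0.0225) and without FC5 or MC5, the only controls of litter C (0.0230 and 0.0217). How many of all genes were called in these omissions is not given here. In a fit of all 20 mice the call of Nphs1 ended (adjusted p = 0.0225).

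In mutants all 8 estimates of male against female were again below 0. Synpo was called, with -0.68 ± 0.13 (adjusted p = 0.0076), 1 of 8 against 1.69% of 15133 genes called lower. It ranged from 40.5 to 69.1 CPM in male mutants and from 83.7 to 111 in female mutants. Nphs1 had -0.80 ± 0.23 (adjusted p = 0.040), Ptpro -0.64 ± 0.16 (0.025), Wt1 -0.63 ± 0.17 (0.037) and Podxl -0.39 ± 0.15 (0.11). Wt1 and Ptpro also did not overlap between the mutant groups of the 2 sexes, and here too the share of all genes without overlap was not counted. An unadjusted p under 0.05 was found in 29.6% of all genes. DESeq2 and a fit of all 20 mice each called 4 members (Nphs1, Wt1, Synpo and Ptpro), where they called 12.8% and 15.4% of all genes in either direction against 5.17% here. The edgeR call of Synpo ended in 7 of 10 omissions of 1 mouse, MM2, MM3, MM4, MM5, FM1, FM2 or FM5 (adjusted p from 0.0058 to 0.049 over all 10). How many of all genes were called in these omissions is not given here.

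Ordered by mean level, female control, female mutant, male control and male mutant formed a descending series for 5 of 8 members, Nphs1, Podxl, Wt1, Ptpro and Plce1. The middle neighbours of that order overlapped in 4 of the 5, all but Ptpro, among them Nphs1 (21.96 ± 5.74 CPM in female mutants and 20.3 ± 3.08 in male controls) and Podxl (199.9 ± 28.5 and 199 ± 30.6). Male controls and male mutants, the lowest neighbours, overlapped in all 5. In Synpo both female groups lay above both male groups, and in Cd2ap both mutant groups above both control groups.

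Single mice stood out across several members. MC5, the male control with the largest kidney for its body weight, was the lowest male control for 6 of 8 members, and FC5, its female litter mate in litter C, the lowest female control for 7. MM4 was the highest male mutant for 6 members and FM5 the highest female mutant for 5. FM4 was neither lowest nor highest in its group for any member.

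After each group's mean was subtracted, Nphs1, Podxl, Wt1 and Ptpro still varied together, with Pearson's r of 0.65 to 0.81 over the 6 pairs (20 mice, a description, since the values share libraries and depth). Podxl with Ptpro and Nphs1 with Podxl both had 0.81. Cd2ap varied with Plce1 (0.80) and Synpo (0.70) but not with Nphs1 (-0.25). Over all 28 pairs the median was 0.45.

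**Figure D3:**
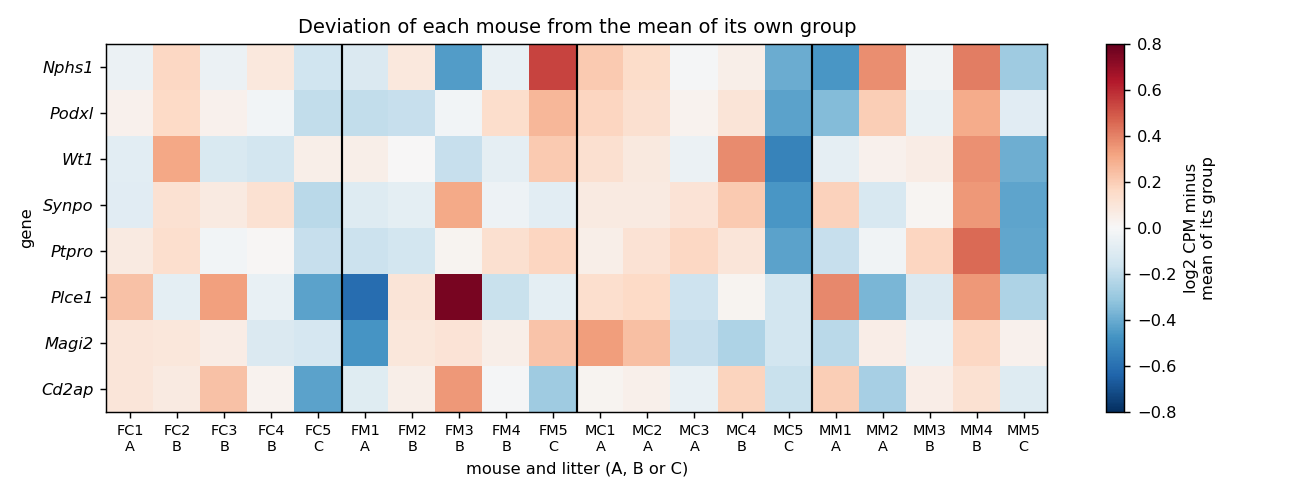
Each podocyte gene (rows) in each mouse (columns, with the litter under the name) as log2 CPM minus the mean of the mouse's own group, red above and blue below, with lines between the groups. MC5 and FC5, both of litter C, are blue over most rows, and MM4 and FM5 are red over most.

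Since the study relates expression to kidney-to-body weight ratio (KBW, 1 kidney as percent of body weight), the members were set against KBW within each genotype. KBW ranged from 1.22% to 2.15% in male mutants and from 0.836% to 1.46% in female mutants. With sex in the model, Nphs1 had a slope of -0.99 ± 0.29 on the log2 scale per percentage point of KBW (adjusted p = 0.083) and Podxl -0.65 ± 0.19 (0.081). By edgeR 0 of 8 members were called in the 10 mutants, as were 0% of 14865 genes, with 2 members at an unadjusted p under 0.05 (3274 of all genes), and DESeq2 called 0 members. The other slopes were 0.70 ± 0.42 for Plce1, 0.44 ± 0.21 for Cd2ap, 0.23 ± 0.25 for Synpo, -0.37 ± 0.26 for Magi2, -0.36 ± 0.29 for Ptpro and -0.25 ± 0.29 for Wt1.

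Per mouse, log2 CPM of Podxl had Pearson's r = -0.91 with KBW over the 10 mutants (permutation p = 4.0e-04, adjusted p = 0.098 over 14865 genes) and Spearman's rho = -0.76 (permutation p = 0.015, adjusted p = 0.29). Nphs1 had r = -0.87 (permutation p = 0.0012, adjusted p = 0.10) and rho = -0.81 (permutation p = 0.0075, adjusted p = 0.25). Centring each sex moved r to -0.82 for Podxl and -0.74 for Nphs1, and leaving out MM1 and FM4, the 2 mutants farthest from the median KBW, gave -0.81 and -0.89. Ptpro, Wt1, Magi2 and Synpo had r of -0.72, -0.69, -0.56 and -0.47 (permutation p = 0.019, 0.027, 0.090 and 0.17, adjusted p = 0.23, 0.26, 0.41 and 0.52). With each sex centred, for which no p was computed, these became -0.38, -0.30, -0.51 and 0.31. Their rho values were -0.72, -0.66, -0.59 and -0.50 (permutation p = 0.024, 0.045, 0.080 and 0.14). Plce1 and Cd2ap had r of -0.11 and 0.33 (permutation p = 0.76 and 0.35), and 0.44 and 0.66 with each sex centred. Thus 8 relations were computed and none passed correction over all genes. Litters held 2 to 5 mutants, and no correlation was computed within a litter. With sex and litter both in the model the slopes were -0.85 ± 0.29 for Nphs1 and -0.57 ± 0.22 for Podxl (adjusted p = 0.19 and 0.25).

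In the 10 controls all 8 slopes were negative, from -2.27 ± 0.43 for Synpo (adjusted p = 0.90) to -0.32 ± 0.84 for Magi2. Again 0 of 8 members and 0% of 14760 genes were called by edgeR, with 4 members at an unadjusted p under 0.05 (645 of all genes). DESeq2 called 1 member, Synpo, but the share of all genes that it called for this slope is not given here. Kidneys of controls spanned little, 0.555% to 0.678% of body weight apart from MC5 at 0.896%. Without MC5 the slope was -0.48 ± 1.21 for Podxl and 1.15 ± 1.84 for Wt1, and -2.33 ± 1.04 for Synpo. Nphs1 had r = -0.73 in controls (permutation p = 0.013, adjusted p = 0.40) and rho = -0.48 (permutation p = 0.17, adjusted p = 0.75), and r was -0.22 without MC5 and FC4, so that the relation rested on those mice.

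**Figure D4:**
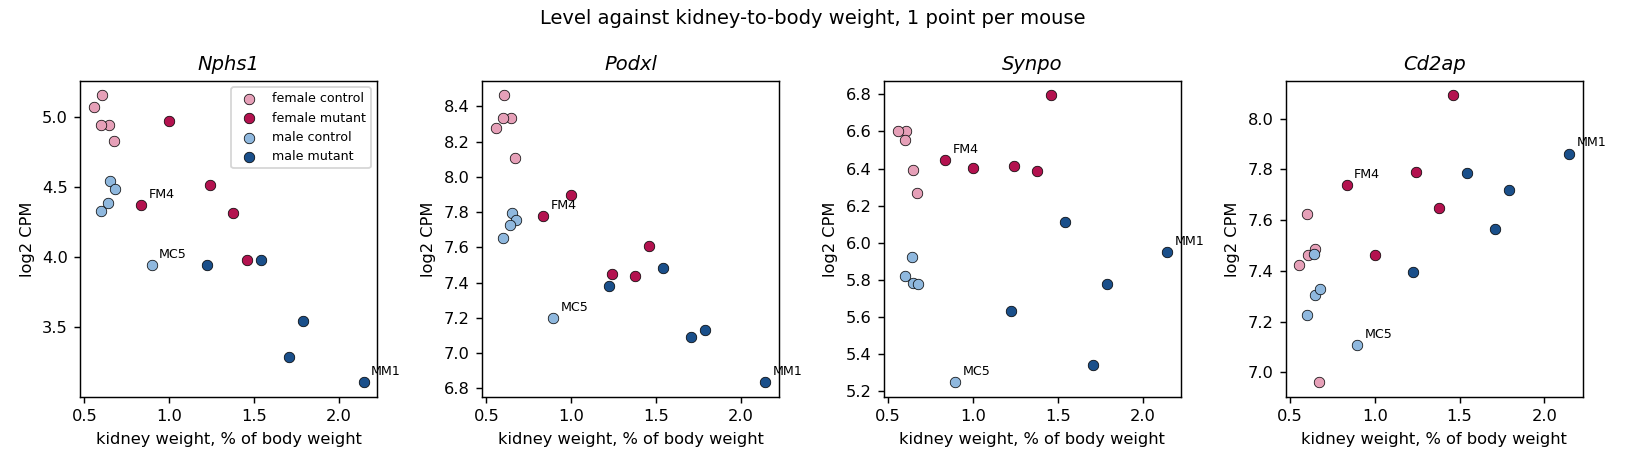
Log2 CPM of Nphs1, Podxl, Synpo and Cd2ap against kidney weight as percent of body weight, 1 point per mouse coloured by group, with MC5, MM1 and FM4 named. Nphs1 and Podxl tend to be lower in mutants with larger kidneys (r = -0.87 and -0.91 over 10 mice of both sexes, -0.74 and -0.82 with each sex centred). Neither r over the 10 mice passed correction over all genes (permutation test, adjusted p = 0.10 and 0.098). MC5 sits low and to the right of the other male controls.

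Other genes of the podocyte were read from lists. Of 13 slit diaphragm partners 11 could be tested over all mice, and 3 were called lower, among them Ddn and Crb2 (the last named after its values were seen), and Fat1 was called higher, with a median log2 fold change of 0.21. Ddn, which encodes dendrin, a slit diaphragm protein, had -0.85 ± 0.13 (adjusted p = 1.2e-04). Fat1, a giant protocadherin gene also active in tubules, had 0.58 ± 0.15 (0.0063). Tjp1, the gene of the junction protein ZO-1, had 0.21 ± 0.10 (0.12), and Pard3, a polarity gene, -0.13 ± 0.05 (0.083).

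Of 8 podocyte transcription factor genes, Dach1 was called lower (-0.41 ± 0.09, adjusted p = 0.0016), the single call in that list. Tcf21 and Foxc1 had -0.18 ± 0.11 and 0.17 ± 0.13 (adjusted p = 0.25 and 0.36), beside -0.50 for Wt1 above. Among 15 other podocyte markers 3 were called, all lower, with a median of -0.20. Vegfa, the vascular growth factor gene that podocytes and tubules both express, had -0.57 ± 0.14 (0.0048) and Tdrd5 -0.62 ± 0.14 (0.0027). Npnt, Enpep and Ildr2 had 0.28 ± 0.10, 0.02 ± 0.07 and -0.02 ± 0.09 (adjusted p = 0.049, 0.89 and 0.92).

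Of 15 genes of the foot process cytoskeleton and its adhesions, 5 were called higher and 2 lower, with a median of 0.25. Anln, the gene of the actin-binding protein anillin that acts in dividing cells, rose by 2.17 ± 0.23 (adjusted p = 5.5e-06), and Itga3, the integrin alpha 3 gene, by 0.63 ± 0.12 (7.6e-04). Of 9 glomerular basement membrane genes 3 were called higher, among them Nid1 (0.74 ± 0.13, adjusted p = 3.2e-04) and Agrn (0.70 ± 0.11, 1.9e-04), which tubule basement membranes also contain.

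Of 8 endothelial genes 0 were called in either direction over all mice by edgeR (6 had an unadjusted p under 0.05, and DESeq2 called 0 higher and 1 lower), with a median of -0.17. In males alone 1 of the 8, Pecam1, was called higher in mutants (0.55 ± 0.10, adjusted p = 0.0038), against 8.35% of all genes called in either direction. Of 6 mesangial genes 1 was called higher over all mice, Serpine2 (0.66 ± 0.16, adjusted p = 0.0042). In controls, however, all 8 endothelial genes were called lower in males (median -0.47), as were 3 of 6 mesangial genes. Loop and distal tubule genes also had 3 of 5 called lower in male controls, while 3 of 7 proximal tubule genes were called higher.

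Markers of other cells also differed with genotype. Over all mice 5 of 6 parietal epithelial genes, 3 of 4 mesothelial genes tested, 4 of 6 immune genes, 4 of 6 fibroblast genes and 6 of 6 tubule injury genes were called higher, and 5 of 5 loop and distal tubule genes and 3 of 5 collecting duct genes lower. Vcam1 is counted in both the parietal and the tubule injury list. The parietal list also holds Pax8, whose promoter acts in tubules, so its calls are not particular to parietal cells. Of 7 proximal tubule genes 1 was called, Slc22a12, the urate transporter gene, which fell by 0.69 on the log2 scale. The collagen genes Col3a1 and Col1a1 rose by 2.19 and 2.04 on the log2 scale, the macrophage genes Itgam and Adgre1 by 2.35 and 1.53, the injury markers Havcr1 and Krt20 by 6.33 and 5.13, Cd44 and Vcam1 of the parietal list by 2.55 and 2.53, and Krt19 and Msln of the mesothelial list by 1.85 and 1.67. Pvalb and Calb1 of the distal tubule fell by 1.26 and 1.15, and Slc4a1 and Atp6v1b1 of the intercalated cell by 1.27 and 0.55. The summed CPM of the fibroblast list was 151 to 198 in male controls and 278 to 817 in male mutants, and 195 to 302 in female controls and 328 to 1109 in female mutants. That of the immune list was 24.4 to 30.9 and 38.6 to 104 in males and 23.7 to 44.7 and 37.8 to 154 in females. The tubule injury list stood at 822 to 1037 and 1813 to 9422 in males and at 1894 to 2313 and 2717 to 10205 in females. No list was at 0 in any group, and Lrrn4, a mesothelial gene, was at 0.147 CPM on average. The part of these cells and of the larger kidneys in the lower CPM of Nphs1, Podxl, Wt1 and Ptpro was not tested.

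Markers of the other cells that make 2 of the members were read beside them. Mesothelium also makes Wt1. The summed mesothelial list stood at 6.10 to 23.0 CPM in male controls and 11.2 to 47.5 in male mutants. In females it stood at 5.89 to 32.9 in controls and 17.05 to 81.1 in mutants. Krt19 weighed heavily in that sum, with means of 3.61 and 13.02 CPM in male controls and mutants and 5.37 and 24.5 in females. Over all mice 3 of the 4 genes tested were called higher, and Upk1b was not (0.05 ± 0.45, adjusted p = 0.95). Endothelium also makes Podxl. The summed endothelial list stood at 308 to 397 CPM in male controls and 358 to 488 in male mutants. In females it stood at 467 to 582 in controls and 400.1 to 538 in mutants. The part of either cell type in Wt1 and Podxl was not tested.

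**Figure D5:**
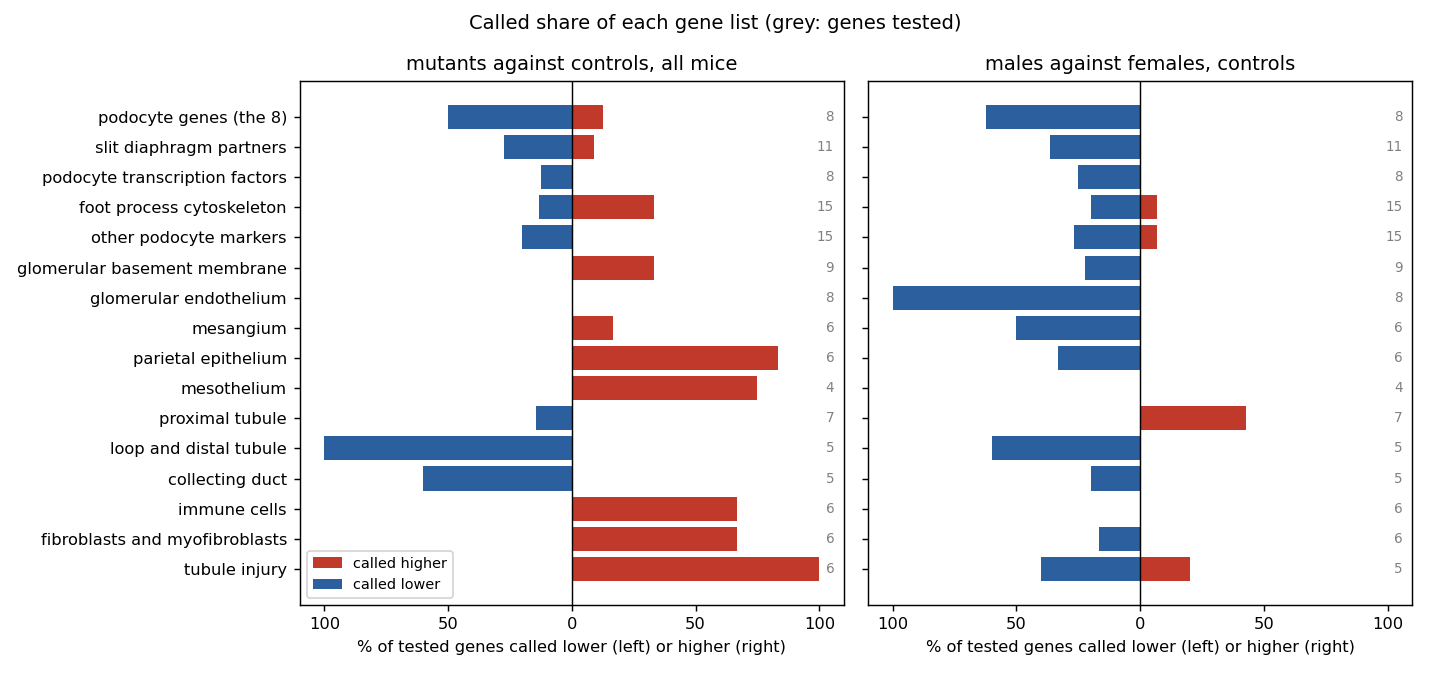
Share of the tested genes of each list (grey numbers) called higher (red, right) or lower (blue, left) at an adjusted p under 0.01, for mutants against controls over all mice (left) and males against females in controls (right). Of the 8 podocyte genes 4 are called lower on the left and 5 on the right. All 8 endothelial genes (labelled glomerular endothelium) are called lower on the right.

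Over the 20 mice the genes most like the mean standardized profile of the 8 members were Thsd7a (Pearson's r = 0.97), Tbc1d4, Ccdc141, Mgat4a and Angptl2 (0.93 each), none of them a member. Among those most like Nphs1 alone were Ankrd24 (0.97), Hoxd4 and Hoxd3 (0.96 each) and Ddn (0.95). These are descriptions over mice that share the effects of sex, litter and genotype, and without FM4 these values were 0.93 to 0.97.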

How the data were processed

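RNA-seq was performed on whole kidneys of 20 mice, and the deposited table holds raw read counts per gene made by the authors, with 1 column per mouse. Per the submitters' processing notes and methods, fastp 0.23.2 was used for trimming and STAR 2.7.10b for alignment (mm10 genome), and the authors worked in R 4.3.0. The counting tool and strand setting were not given in the sources used here. Groups were taken from the labels, and mice were numbered within a group in accession order. Replicate libraries all differed beyond counting noise (lowest chi-square per degree of freedom, 5.48).

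Counts were normalized by TMM and tested with the edgeR 4.0.16 quasi-likelihood test (R 4.3.3) after filterByExpr on each design, with litter as covariate for genotype and sex, and sex for slopes on KBW. The p-values were adjusted by Benjamini-Hochberg over all genes tested and called at an adjusted p under 0.01. SE was the absolute log2 fold change divided by the square root of F. CPM used TMM library sizes, and log2 CPM a prior count of 2. Of 24411 genes listed, 4576 had no count. Correlations (two-sided, 100000 resamples) were run in Python 3.11.15 with numpy 2.4.6 and scipy 1.17.1. The scripts were tested on simulated data.

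The members and lists were chosen with earlier results of these data known. From each list the 2 called genes with the largest absolute log2 fold change over all mice were named, with the 4 of highest mean CPM in the slit diaphragm, transcription factor and other podocyte marker lists, and the 5 genes most correlated with the member mean and with Nphs1. Some genes that this rule names are not reported here. Alternatives were DESeq2 1.42.0, other scalings and filters, other model terms and leaving out each mouse. The filter on groups and the ratios to Nphs1 were added after the data were seen. Depth was 11307741 to 19324073 counts per mouse, and the members had 88 to 6465 counts per mouse, so that spread between mice, more than counting error, limits precision for the abundant members.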

Additional observations from a re-analysis of the deposited data

Results flagged for a closer look

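Within the groups of 5 mice, 36 sets of values were searched for 1 mouse far from the others, and 6 were found, where chance alone gives about 1 in 20. Of these 6, 4 concern MC5, a male control of litter C. MC5 was lowest among male controls in Podxl (146 CPM), Synpo (37.9 CPM) and Ptpro (10.2 CPM), and highest in KBW (0.896%, against 0.599% to 0.678% in the other male controls). FM3 was highest among female mutants in Synpo (111 CPM), and FM1 lowest in Magi2 (9.49 CPM). Without MC5 the male fold change of Nphs1 lost its call, as did that of Wt1 between male and female controls. The 5 calls over all mice held. These losses were not particular to MC5, since 7 of 10 omissions ended the call of Nphs1 and 3 of 10 that of Wt1. Without MM5, the other male of litter C, the log2 fold change of Nphs1 was -0.80, as it was without MC5. This match was fixed by the design, since with litter in the model either omission removes litter C from the comparison. The same holds for MC5 and FC5, the only controls of litter C, when the sexes are compared. Omissions within such a pair are not separate tests.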

How the results depend on the processing

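The 5 calls over all mice held in each alternative but the one without litter, which ended that of Ptpro. Members called in males numbered 5 at an adjusted p under 0.05, 2 with no filter, 3 with DESeq2, 0 with all 20 mice in 1 fit, and 0 to 2 on leaving out 1 mouse. All genes called in males were 20.0%, 8.21%, 14.0% and 5.76% in the first 4 of these, against 8.35%. In females the numbers were 2 at 0.05, 1 with no filter, 2 with DESeq2, 1 without litter, 1 with all 20 mice, and 0 to 1 on leaving out 1 mouse. All genes called in females were 5.4%, 1.19%, 6.29%, 1.19% and 5.71% in the first 5, against 0.612%. Between the sexes in mutants they were 4 at 0.05, 2 with library totals, 4 with DESeq2, 4 with all 20 mice, and 0 to 1 on leaving out 1 mouse. All genes called there were 14.0%, 6.2%, 12.8% and 15.4% in the first 4, against 5.17%. DESeq2 called 1 member for the slope in controls, where its share of all genes is not given. The causes were not tested.

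Of 1126 single-gene values recomputed, 1041 kept direction and call, 24 gained the call, 20 lost it and 41 changed sign. Of these sign changes 0 were for a member in a comparison in which it was called. Signs changed for Magi2 in males (-0.0092 without litter, -0.010 with all 20 mice), for Plce1 and Magi2 in females and Magi2 over all mice with library totals (0.023, 0.0094 and 0.028), and for the slopes of Synpo and Plce1 in mutants without sex (-0.52 and -0.13). On leaving out 1 mouse, log2 fold changes ran from -0.038 to 0.089 (males), -0.048 to 0.079 (females) and -0.025 to 0.046 (all) for Synpo, from -0.25 to 0.054, -0.28 to 0.15 and -0.20 to 0.021 for Plce1, and from -0.097 to 0.12, -0.16 to 0.076 and -0.090 to 0.036 for Magi2. Male against female they ran from -0.079 to 0.090 for Cd2ap in controls, and from -0.084 to 0.020 for Cd2ap and -0.19 to 0.024 for Magi2 in mutants. Control slopes ran from -2.40 to 1.15 for Wt1 and -0.83 to 1.86 for Magi2. With each sex centred the correlation of Nphs1 with KBW in mutants moved to -0.744. The correlation of Podxl with KBW in mutants moved to -0.817 with each sex centred, -0.812 without the 2 farthest mice and -0.822 with library totals.

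Genes called in all, beside Nphs1 and the other members, numbered 1228 in males, 93 in females and 783 between the sexes in mutants, against 2054, 955 and 1942 with DESeq2. With all 20 mice in 1 fit there were 865 in females and 2339 between the sexes in mutants. Females had 230 with no filter, 172 without litter and 3 to 906 on leaving out 1 mouse. No paired analysis was possible because the replicate numbers were given here in accession order and tie no mice together, and litter is already in the model.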
